A study of Mus musculus with 6 samples.

Results

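Mitochondria keep a small circular genome of their own, and the proteins that copy and transcribe it are encoded in the nucleus. The 10 genes described here are Polrmt, Tfam, Tfb1m, Tfb2m, Tefm, Twnk, Polg, Polg2, Lrpprc and Slirp, a list by function that holds the mitochondrial polymerases, transcription factors, the replicative helicase and RNA stability factors. These genes were chosen with earlier results of these data known. All 10 were matched by Ensembl identifier among the 24190 genes of the count table, and 9 had enough reads to be tested, while Slirp had 6 reads over all samples. The samples were cultures of MTO54 parental organoids, mouse tumor organoids (MTOs) of colorectal origin with the genotype labelled AKP. Of these, 3 were control cultures in complete stem cell medium, and 3 received Folfiri, which here was SN38 at 100 nM together with 5FU at 50 μg/μl (a unit copied from the labels). By the labels treatment lasted 2 days and began 2 days after seeding, whereas figure legends of the study give a longer treatment. SN38, the active metabolite of irinotecan, blocks topoisomerase I, and 5FU inhibits thymidylate synthase and is built into RNA and DNA. All samples came from 1 organoid line, seeded as single cells in BME, a matrix gel. The study calls the samples of a group biological replicates, and neither it nor the labels say how the cultures were separated, so p values measure the spread between these samples of a single line.

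POLRMT is the RNA polymerase of mitochondria. It starts transcription with TFAM, which bends and packages mitochondrial DNA, and TFB2M, which opens the promoter, and TEFM keeps it moving along the template. TFB1M, a relative of TFB2M, methylates the small mitochondrial ribosomal RNA. The same DNA is copied by POLG, the catalytic subunit of DNA polymerase gamma, with its accessory subunit POLG2 and the helicase Twinkle, the product of Twnk. Long transcripts are read from both strands and cut into single RNAs, and LRPPRC with its partner SLIRP keeps the mature mRNAs stable and polyadenylated. The mitochondrial genome itself encodes 13 proteins, all of them subunits of respiratory complexes I, III and IV and of ATP synthase.

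Promoters of genes for mitochondrial proteins are known for binding sites of NRF1 and of GABP, a factor of the ETS family. For the members, RefSeq windows on GRCm38.p6 of 300 bases, from 250 before to 50 after the annotated start, were searched on both strands for the ETS letters CCGGAAG, the E-box CACGTG, the palindromic NRF1 site and a form of that site with any base at its sixth position. All 10 genes had a window and Twnk had 2. The ETS letters were found in 7 of the 10 members, and in 9.93% of the 27025 genes with a window. The spaced NRF1 form, which includes the palindromic one, was found in Polrmt, where 2 copies overlap, and in 5.19% of all genes. The palindromic NRF1 site was found in 0 members and 1.07% of all genes, and the E-box in 0 members and 8.09% of all genes. The ETS letters nearest the start of each of the 7 genes, in capitals, are shown on the strand that reads CCGGAAG (GRCm38.p6) with 12 bases to either side, since this is what most of the promoters shared.
Tfam (chr10:71238073-71238103, minus strand): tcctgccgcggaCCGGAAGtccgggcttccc
Polrmt (chr10:79746606-79746636, plus strand): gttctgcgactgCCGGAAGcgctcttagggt
Tefm (chr11:80142144-80142174, minus strand): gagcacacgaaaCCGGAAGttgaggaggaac
Polg (chr7:79466293-79466323, minus strand): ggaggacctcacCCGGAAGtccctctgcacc
Polg2 (chr11:106779548-106779578, plus strand): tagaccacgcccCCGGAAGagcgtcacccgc
Twnk (chr19:45006480-45006510, minus strand): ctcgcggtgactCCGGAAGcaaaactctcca
Slirp (chr12:87443873-87443903, minus strand): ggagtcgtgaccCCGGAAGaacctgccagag
Counted from the start as 1, the first base of these letters lay at -47 in Tfam, -43 in Polrmt, -9 in Tefm, -38 in Polg, -29 in Polg2, -66 from the second of 2 starts in Twnk and -11 in Slirp. Thus 7 sites fell within 66 bases before the start, on the strand of the gene in Tfam, Tefm and Polg and on the other strand in the rest. The 3 members without these letters were Tfb1m, Tfb2m and Lrpprc. The whole windows of Tfb2m (chr1:179546227-179546526, minus strand) and Tfb1m (chr17:3557706-3558005, minus strand) are given because the 2 genes parted after treatment, and that of Polrmt (chr10:79746532-79746831, minus strand), with the ETS and NRF1 letters in capitals, because it held both kinds of letters. The windows are written on the strand of the gene, on which the ETS letters of Polrmt appear in reverse complement.
Tfb2m: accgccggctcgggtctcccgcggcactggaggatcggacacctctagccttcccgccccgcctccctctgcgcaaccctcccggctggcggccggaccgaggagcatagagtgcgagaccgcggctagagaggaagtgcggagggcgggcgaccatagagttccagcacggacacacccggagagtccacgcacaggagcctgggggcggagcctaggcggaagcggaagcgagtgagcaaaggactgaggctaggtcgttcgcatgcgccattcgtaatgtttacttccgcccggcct
Tfb1m: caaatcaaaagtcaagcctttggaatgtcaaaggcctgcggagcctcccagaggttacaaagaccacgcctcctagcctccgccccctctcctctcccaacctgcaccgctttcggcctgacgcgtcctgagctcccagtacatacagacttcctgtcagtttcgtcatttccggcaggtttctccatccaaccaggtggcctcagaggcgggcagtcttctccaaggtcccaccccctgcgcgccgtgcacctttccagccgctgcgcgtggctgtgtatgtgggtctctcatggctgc
Polrmt: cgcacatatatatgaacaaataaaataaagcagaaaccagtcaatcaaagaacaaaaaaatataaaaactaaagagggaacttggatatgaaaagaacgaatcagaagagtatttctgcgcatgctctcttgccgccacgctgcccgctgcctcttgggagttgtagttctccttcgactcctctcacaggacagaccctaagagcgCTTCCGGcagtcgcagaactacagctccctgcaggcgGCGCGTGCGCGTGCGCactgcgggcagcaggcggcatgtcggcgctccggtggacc
A match of letters is a description and not a bound site. Only exact matches were counted, so near variants of these letters were not sought in any window.

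Library sizes were alike. Total counts ranged from 22103591 to 30098210 per sample. Levels are CPM, read counts relative to library size, scaled by TMM, a method that sets the bulk of genes level between samples. The p values of edgeR were adjusted by Benjamini-Hochberg across 14692 tested genes. Scaling by total counts in place of TMM moved the median over all tested genes from 0.02 to 0.30 on the log2 scale. Samples differed by more than sampling noise within both groups. Control replicate 1 stood apart from the other controls, with a chi-square statistic per degree of freedom of 25.3 and 23.9 against them, while control replicates 2 and 3 gave 4.03. Folfiri replicate 3 likewise stood apart, with 13.3 and 12.8 against the other Folfiri samples, which gave 3.76 between them. All 8 epithelial markers were expressed, at a summed level of 5976 to 6945 CPM in controls and 4817 to 4991 CPM after Folfiri, where 5 were lower, among them Cdx2 (157 to 54.5 CPM) and Epcam, and 1, Cdh1, was higher. Of 6 immune markers 4 were too low to test, and the sum, mostly Cd68, was 21.3 to 26.0 CPM in controls and 21.4 to 22.4 CPM after Folfiri, while Ptprc was higher after Folfiri (0.396 to 1.06 CPM). Fibroblast markers summed to 1.08 to 1.44 CPM in controls and 2.03 to 2.45 CPM after Folfiri, 3 of 6 being too low to test, and Col3a1 and Pdgfrb were at 0 in all controls. The tested ones moved both ways, Dcn from a mean of 0.024 to 0.694 CPM, Pdgfra from 0.397 to 1.14 CPM and Col1a1 from 0.842 to 0.301 CPM. Endothelial markers summed to 72.2 to 125 CPM in controls and 65.7 to 76.4 CPM after Folfiri, nearly all of it Cdh5, and Kdr was at 0 in all controls. The part of these markers in the results was not tested.

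After Folfiri, 8 of the 9 tested machinery genes were higher than in control MTOs and 0 were lower (edgeR's quasi-likelihood test, adjusted p under 0.05). At an unadjusted p under 0.05 edgeR also gave 0 lower. At an adjusted p under 0.05 DESeq2 gave 8 higher and 0 lower. Over all tested genes 79.1% were called, 40.3% as higher and 38.8% as lower. The median log2 fold change of the 9 genes was 0.86, against 0.02 over all tested genes. Most genes moved after treatment, and 7 of the members had log2 fold changes above the interquartile range of all tested genes. Of these, 2, Tefm and Twnk, rose by at least 1 on the log2 scale, a size that 19.5% of tested genes passed. A fall of that size was seen in 0 members and 16.8% of tested genes. Which members passed the size of 1 depended on the fit. With scaling by total counts Polrmt, Tfam, Tfb2m, Polg2 and Lrpprc passed it too. Without control replicate 3 Twnk was at 0.83 and Polg2 at 1.05. In the same 8 genes every Folfiri sample lay above every control sample, which was so for 41.6% of tested genes. The reverse held for 39.9%, so that the groups were apart in 81.4% of all tested genes. These are RNA levels of whole cultures, in which a change in the share of a cell type and a change in RNA per cell cannot be told apart.

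**Figure D1:**
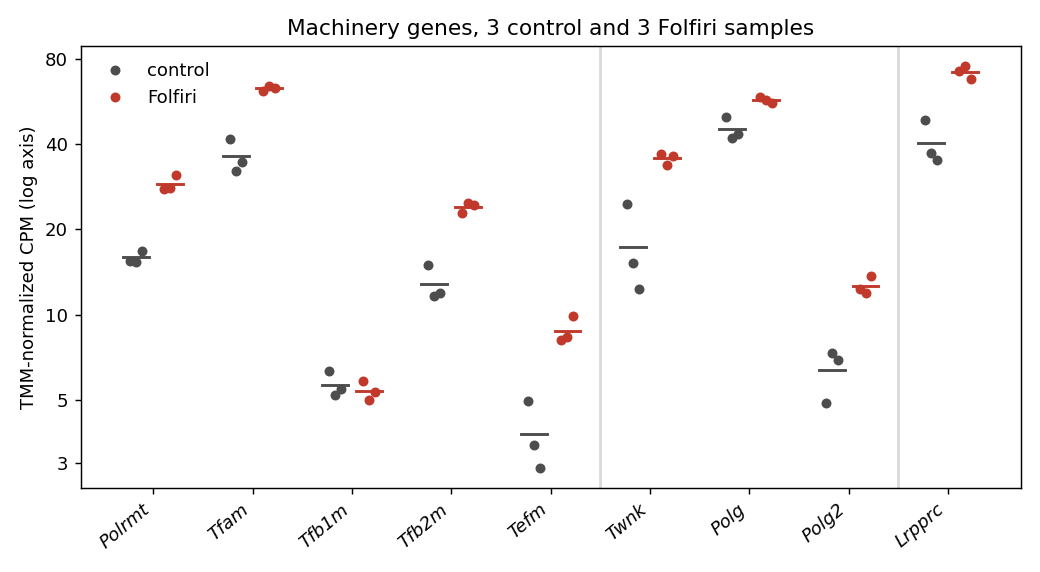
TMM-normalized CPM (log axis) of the 9 tested machinery genes, with a point for each of 3 control and 3 Folfiri samples and a line at the group mean. Vertical lines part transcription, replication and RNA stability genes. The Folfiri points lie above all control points in every gene shown but Tfb1m, whose groups overlap.

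Polrmt, the polymerase gene on chromosome 10 (79736123 to 79746581 on GRCm38, minus strand), was at 15.5, 15.4 and 16.8 CPM in control replicates 1, 2 and 3 and at 27.7, 27.9 and 31.1 CPM after Folfiri. The groups were far apart, with little spread within either. The log2 fold change was 0.86 with an SE of 0.09 (n = 3 per group, edgeR adjusted p = 6.32e-06).
Tfam, which also lies on chromosome 10 (71225464 to 71238280, minus strand), was at 41.6, 32.2 and 34.7 CPM in controls and at 61.7, 64.2 and 63.2 CPM after Folfiri. Control replicate 1 was the highest control and still well below the treated samples. The log2 fold change was 0.80 with an SE of 0.10 (edgeR adjusted p = 2.09e-05).
Tefm, the elongation factor gene (chromosome 11, 80136678 to 80142175, minus strand), had the largest log2 fold change of the members, 1.20 with an SE of 0.19 (edgeR adjusted p = 0.000136). Its level was 4.97, 3.48 and 2.88 CPM in controls and 8.12, 8.33 and 9.92 CPM after Folfiri, so the lowest treated sample stood clear of the highest control. Without control replicate 1 the log2 fold change was 1.46, the highest of the 6 fits that each left out a sample.

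The 2 genes of the TFB family did not move alike. Tfb2m, the initiation factor (chromosome 1, 179528055 to 179546267, minus strand), was at 14.98, 11.6 and 11.9 CPM in controls and 22.9, 24.7 and 24.3 CPM after Folfiri. This is a log2 fold change of 0.90 with an SE of 0.11 (edgeR adjusted p = 2.57e-05). A pseudogene, Gm1818, is at least 97% alike over 48.5% of the Tfb2m transcript and was not analysed here, so reads shared with it cannot be told apart.
Tfb1m, the ribosomal RNA methyltransferase (chromosome 17, 3519256 to 3557781, minus strand), was at 6.30, 5.20 and 5.45 CPM in controls and 5.83, 5.00 and 5.34 CPM after Folfiri. The treated samples lay within the range of the controls but for 1 that fell just below it. Its log2 fold change was -0.07 (95% interval -0.37 to 0.23, edgeR adjusted p = 0.636). Scaling by total counts gave 0.20, also short of the threshold. The interval holds changes of either sign but not one of the size seen in Tfb2m.
The ratio of the 2 genes within a sample does not depend on scaling between libraries. As log2 of Tfb2m over Tfb1m reads, it was 1.25, 1.16 and 1.12 in controls and 1.97, 2.31 and 2.19 after Folfiri. The difference of 0.98 means that Tfb2m gained 1.97-fold on Tfb1m, with the groups apart (two-sided exact permutation p = 0.1, the lowest possible with 3 against 3, adjusted p = 0.133 over 4 ratios).

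In the replication group the accessory subunit and the helicase had larger fold changes than the polymerase subunit. Twnk (chromosome 19, 45005663 to 45012762, plus strand) was at 24.5, 15.2 and 12.3 CPM in controls, the widest spread among the 9 tested members relative to the mean, and at 36.8, 33.7 and 36.4 CPM after Folfiri. The treated samples were close to each other and above all controls. Its log2 fold change was 1.03 with an SE of 0.19 (edgeR adjusted p = 0.000588). In the fits without a sample it ran from 0.83, without control replicate 3, to 1.36, without control replicate 1.
Polg (chromosome 7, 79446231 to 79466362, minus strand) was at 49.7, 42.1 and 43.3 CPM in controls and 58.7, 57.1 and 55.7 CPM after Folfiri. This was the smallest change among the 8 genes that rose, a log2 fold change of 0.34 with an SE of 0.08 (edgeR adjusted p = 0.00284). With scaling by total counts it was 0.61.
Polg2 (chromosome 11, 106768253 to 106779537, minus strand) was at 4.86, 7.32 and 6.94 CPM in controls and 12.3, 11.9 and 13.7 CPM after Folfiri. In contrast to most members, control replicate 1 was here the lowest control. The log2 fold change was 0.995 with an SE of 0.15 (edgeR adjusted p = 0.000127).
Within samples, log2 of Polg over Polg2 reads was 3.35, 2.52 and 2.64 in controls and 2.25, 2.26 and 2.03 after Folfiri. The difference was -0.66, and the groups did not overlap (two-sided exact permutation p = 0.1, adjusted p = 0.133 over 4 ratios). Control replicate 1 carried part of it, since without that sample the difference was -0.40.

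Lrpprc, the RNA stability factor (chromosome 17, 84705247 to 84790789, minus strand), was at 48.6, 37.1 and 35.0 CPM in controls and at 72.7, 75.4 and 67.8 CPM after Folfiri. All treated samples stood above all controls. Its log2 fold change was 0.84 with an SE of 0.12 (edgeR adjusted p = 5.98e-05).
Its partner Slirp could not be measured. The gene (chromosome 12, 87443896 to 87452206, plus strand) had 0, 0 and 2 reads in controls and 1, 1 and 2 reads after Folfiri. In the annotation 97.8% of its exonic bases are also exonic in Snw1 or Alkbh1, which lie on the other strand. Those genes had from 1177 to 3861 reads and from 308 to 1263 reads per sample. Whether reads were counted by strand is not given in the sources used here, and the part of the overlap in the missing reads was not tested. The planned ratio of Lrpprc to Slirp was therefore not computed. Smaller shares of exonic bases overlap genes on the other strand in Twnk (12.6%, Mrpl43), Polg (8.57%, Fanci), Tfb1m (3.93%, Tiam2) and Polg2 (3.03%, Milr1), so their counts could be raised or lowered there, which was not tested. Polrmt, Tfam, Tefm, Tfb2m and Lrpprc share no exonic bases with another gene.

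Per kilobase of exon, the scale on which levels of different genes can be compared, Tfam was the highest member in control MTOs at 8.15 ± 1.09 CPM per kb (SD, n = 3). Next came Lrpprc, Tfb2m, Twnk and Polg between 4.73 and 4.19 CPM per kb, and in this stretch each overlapped its neighbour over the samples. Polrmt followed at 3.40 ± 0.168 CPM per kb and Tefm at 2.41 ± 0.685, each apart from its neighbours. Tfb1m at 1.57 ± 0.160 and Polg2 at 1.46 ± 0.304 CPM per kb closed the order and overlapped.
After Folfiri Tfam was still the highest, at 14.2 ± 0.287 CPM per kb, and apart from the rest. Twnk, Tfb2m and Lrpprc overlapped between 8.87 and 8.46 CPM per kb, and Polrmt, Tefm and Polg overlapped between 6.17 and 5.32 CPM per kb. Polg2, at 2.90 ± 0.207 CPM per kb, now stood above Tfb1m, which was last at 1.49 ± 0.116 CPM per kb. These levels use all annotated exons of a gene, retained introns included, so they understate genes whose long forms are little used.

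The 9 members also differ in length. Ordered from the shortest gene to the longest, Tefm, Twnk, Polrmt, Polg2, Tfam, Tfb2m, Polg, Tfb1m and Lrpprc span 5498 to 85543 bases. Tefm and Twnk, the shortest, had the largest log2 fold changes, and Tfb1m and Polg, near the long end, the smallest, while Lrpprc, the longest, rose by 0.84. Spearman's rho between span and log2 fold change, a comparison that was not planned, was -0.80 over the 9 genes, which share the same 6 libraries. Over the 14687 tested genes with a span it was -0.01, although the medians differed by length. With all tested genes put into 5 classes of like size by span, the median log2 fold change was -0.35 in class 1, the shortest, 0.25 in class 2, 0.27 in class 3, 0.11 in class 4 and -0.23 in class 5. Of the members, 5 fell into class 2, Tfb2m and Polg into class 3, Tfb1m into class 4 and Lrpprc into class 5.

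The mitochondrial transcripts were set beside the machinery. The table lists the 13 mRNA genes of the mitochondrial genome, and the mitochondrial rRNA and tRNA genes were not analysed here. Of the 13 mRNAs, 12 were higher after Folfiri and 1, mt-Co1, was lower (adjusted p under 0.05, edgeR), with a median log2 fold change of 1.49, beside 40.3% called higher and 38.8% lower of all tested genes. They took 2.25%, 2.09% and 2.36% of all counts in controls and 3.95%, 4.08% and 4.44% after Folfiri. The mean share was 1.86-fold higher after treatment, with no overlap between the groups (two-sided exact permutation p = 0.1, the smallest possible). The libraries were made from poly(A) RNA, so the amount of a mitochondrial mRNA and the length of its tail cannot be told apart.

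**Figure D2:**
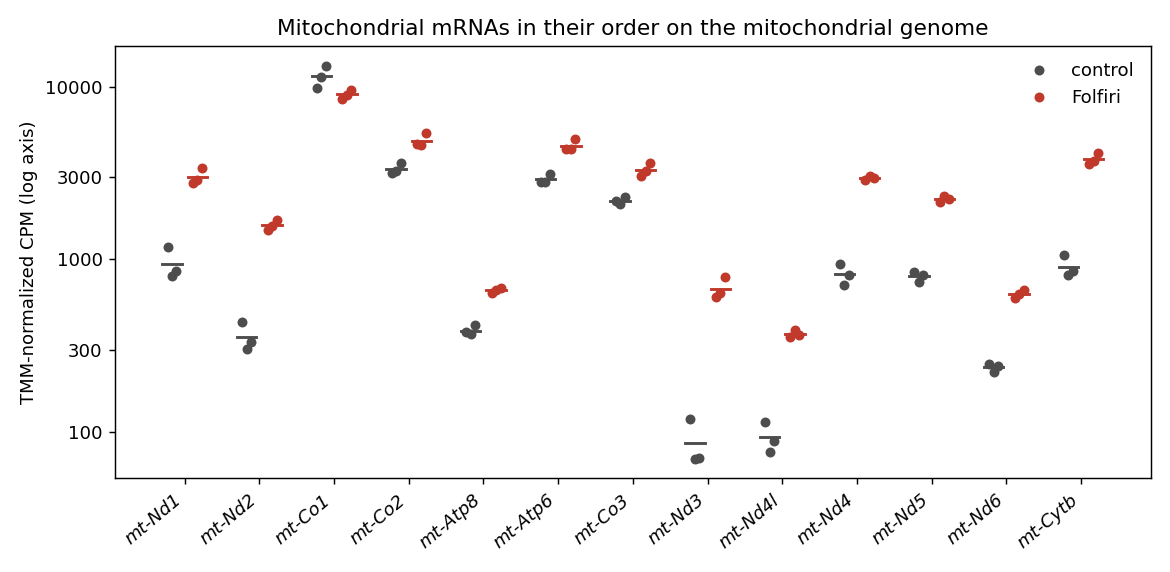
TMM-normalized CPM (log axis) of the 13 mitochondrial mRNAs in 3 control and 3 Folfiri samples, with lines at the group means, in their order along the mitochondrial genome. The gap between the groups is widest for mt-Nd3, narrow from mt-Co2 to mt-Co3, and turned around for mt-Co1.

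The mRNAs did not rise evenly. The 7 mRNAs of complex I, the NADH dehydrogenase, had log2 fold changes from 1.41 to 2.96, and mt-Cytb, the subunit of complex III, had 2.07. The 2 mRNAs of ATP synthase, mt-Atp6 and mt-Atp8, had 0.65 and 0.78, and the 3 of complex IV, the cytochrome c oxidase, from -0.35 to 0.59.
In mt-Cytb the levels were 1056, 810 and 862 CPM in controls and 3566, 3731 and 4164 CPM after Folfiri, with an SE of 0.13 on the log2 scale, and the groups were far apart.
The largest change was that of mt-Nd3, at 119, 69.8 and 70.4 CPM in controls and 603, 635 and 789 CPM after Folfiri, which is a log2 difference of 2.96 with an SE of 0.20 (edgeR adjusted p = 3.09e-07). It had the lowest mean level of reads of the 13 in controls, though not in control replicate 1, and the treated samples were far above all controls, of which replicate 1 was the highest. Relative to the other 12 mRNAs in the same sample it gained 5.30-fold (two-sided exact permutation p = 0.1), a ratio chosen after its values were seen.
The mRNA with the most reads, mt-Co1, moved the other way, from 9810, 11476 and 13306 CPM in controls to 8571, 9024 and 9615 CPM after Folfiri. The samples did not overlap, but controls were widely spread, and the log2 fold change of -0.35 (SE 0.14) only just passed the threshold (edgeR adjusted p = 0.0404). The call was lost in 8 of 14 alternatives, and with scaling by total counts the log2 fold change was -0.06 (edgeR adjusted p = 0.547). Relative to the other 12 mRNAs in the same sample, which no scaling affects, mt-Co1 had log2 ratios of -0.46, -0.10 and -0.03 in controls and -1.66, -1.64 and -1.69 after Folfiri. This is a fall to 0.361 of the control ratio (two-sided exact permutation p = 0.1), likewise chosen after the values were seen.
The only protein gene on the other strand, mt-Nd6, was at 246, 224 and 240 CPM in controls and 599, 627 and 662 CPM after Folfiri, which is a log2 difference of 1.41 with an SE of 0.08 (edgeR adjusted p = 8.12e-08). As log2 of its reads over those of the other 12 mRNAs it was -6.55, -6.72 and -6.79 in controls and -5.87, -5.86 and -5.91 after Folfiri. It thus gained 1.74-fold on their sum, which mt-Co1 led, with the groups apart (two-sided exact permutation p = 0.1, adjusted p = 0.133 over 4 ratios). The gain was not particular to mt-Nd6, since 7 of the other 12 mRNAs had larger log2 fold changes than it. Without strand, reads of mt-Nd6 cannot be told from those of the opposite strand at the same place.

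Several of these mRNAs have near-identical copies in the nuclear genome. Gm10925 on chromosome 1 is alike, at 97% identity or more, over 99.6% of mt-Atp6, and it was counted as strongly, with 95781, 85804 and 74298 reads in controls and 161230, 169026 and 202752 after Folfiri, always more than mt-Atp6 itself. The log2 ratio of mt-Atp6 to Gm10925 stayed between -0.32 and -0.29 in all 6 samples. Gm10222, alike over 99.0% of mt-Nd4l, likewise had read numbers close to those of mt-Nd4l, 3238 beside 3190 in control replicate 1. Copies of mt-Co1, mt-Co2, mt-Co3, mt-Nd3 and mt-Nd4 are annotated as well and were not analysed here. How the counting treated reads with several positions is not given in the sources used here, so the levels of these 7 mRNAs are uncertain. In the search the other 6, mt-Nd1, mt-Nd2, mt-Nd5, mt-Nd6, mt-Cytb and mt-Atp8, gave no copy at that identity among annotated transcripts. Their log2 fold changes ran from 0.78 to 2.15. The lowest was that of mt-Atp8, which shares 43 bases (21.1%) with mt-Atp6, so its level is uncertain too. A match that short could be missed by the search. Without mt-Atp8 the range began at 1.41, in mt-Nd6.

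**Figure D3:**
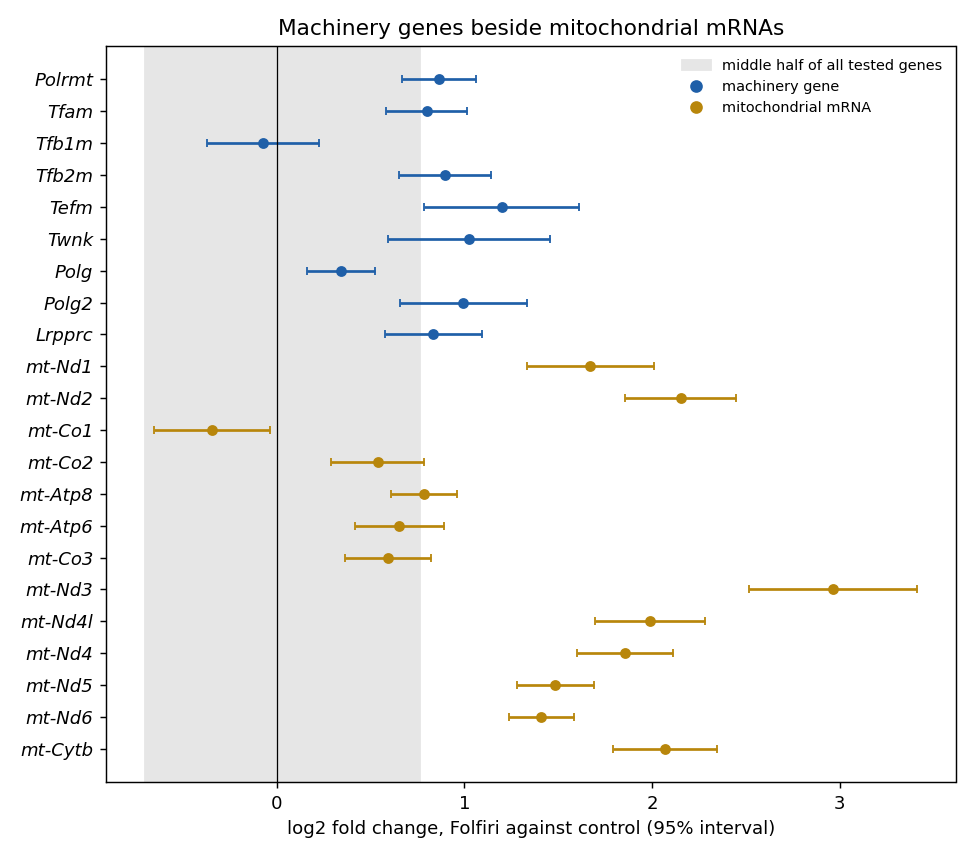
Log2 fold change of Folfiri against control with its 95% interval for the 9 tested machinery genes and the 13 mitochondrial mRNAs. The grey band is the interquartile range of all tested genes, from -0.70 to 0.76. Among machinery genes 7 points lie to the right of the band and Polg and Tfb1m within it, and the mitochondrial mRNAs spread from -0.35 to 2.96.

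In sum of reads, both the machinery and the mitochondrial mRNAs took a larger share after treatment. The 10 members took 0.0204%, 0.0150% and 0.0149% of counts in controls and 0.0339%, 0.0339% and 0.0337% after Folfiri, a 2.02-fold higher share (two-sided exact permutation p = 0.1). In log2 of reads, the 13 mitochondrial mRNAs over the 10 members stood at 6.78, 7.13 and 7.31 in controls and 6.86, 6.91 and 7.04 after Folfiri. The groups overlapped, and the difference of -0.14 was smaller than the spread of the controls of 0.27 (SD, n = 3, two-sided exact permutation p = 0.5, adjusted p = 0.5 over 4 ratios). With 3 samples a group this does not show that the ratio was unchanged. Without control replicate 1 the difference was -0.28 and the groups no longer overlapped (two-sided exact permutation p = 0.1, the smallest possible), and without control replicate 3 it was -0.02.

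**Figure D4:**
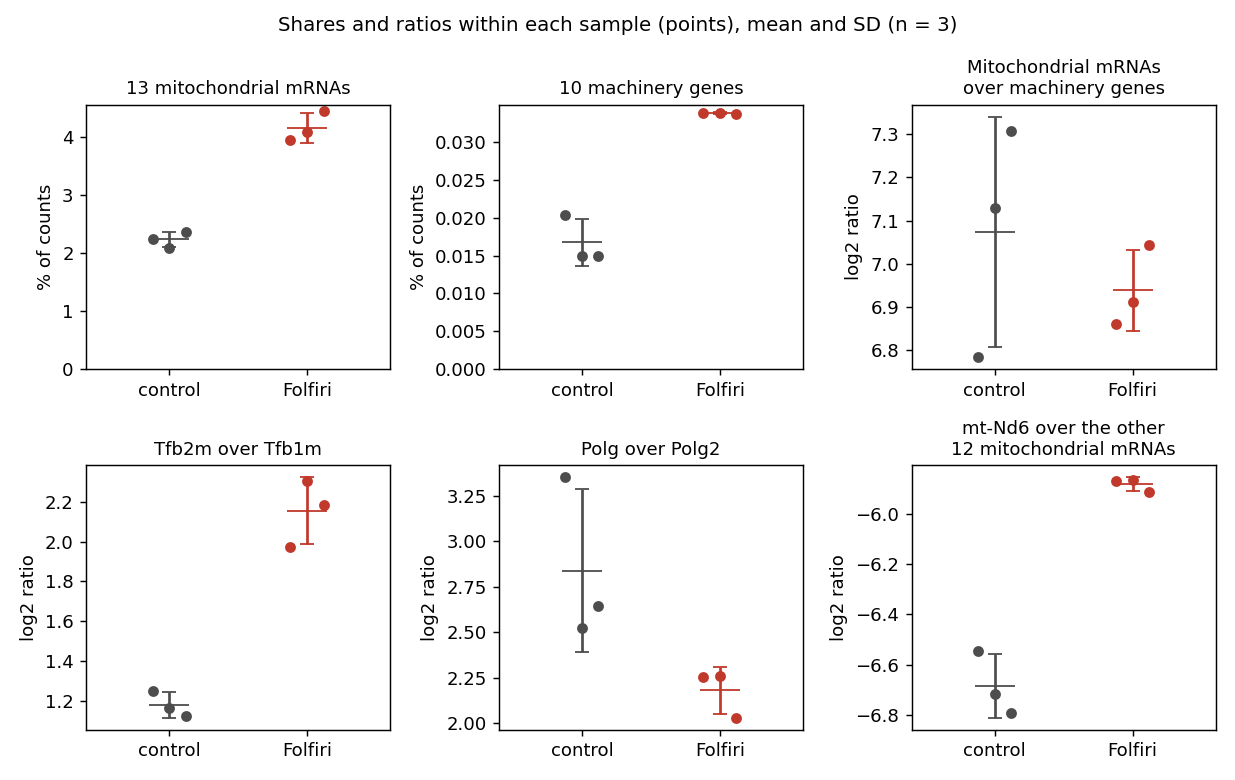
Shares of counts (percent) and log2 ratios of reads within each of 3 control and 3 Folfiri samples (points), with the mean and SD of each group. Both shares, Tfb2m over Tfb1m and mt-Nd6 over the other mRNAs are higher in all Folfiri samples and Polg over Polg2 is lower, while the groups overlap for the mitochondrial mRNAs over the machinery genes.

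Control replicate 1 touched most of these results in the same way. It was the highest control in 7 of the 9 members and in 8 of the 13 mitochondrial mRNAs. In those 7 members this brought it nearer to the treated samples than the other controls, except for Tfb1m, where it lay above them. Without it, 8 of 9 members were still called higher, and the median log2 fold change of the members was 0.92 in place of 0.86.

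Other genes that act on mitochondrial DNA and RNA were taken from 4 lists by role, likewise chosen with earlier results of these data known. Of the 57 genes, all tested, 36 (63.2%) were higher and 12 (21.1%) lower after Folfiri (edgeR), beside 40.3% and 38.8% of all tested genes, and the median log2 fold change was 0.55. With total counts only, 41 were higher and 8 lower, with a median of 0.81. Without control replicate 3, 33 were higher and 12 lower, with a median of 0.40.

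Among 14 genes of mitochondrial DNA maintenance 7 rose and 5 fell, shares of 50.0% and 35.7% that are near the 40.3% and 38.8% of all tested genes, with a median log2 fold change of 0.29. Exog, a mitochondrial nuclease, went from 10.3 ± 1.63 to 37.8 ± 0.715 CPM (mean ± SD, 3 samples each, log2 fold change 1.87), Fen1, a flap endonuclease that also serves nuclear replication, rose by 1.23 on the log2 scale and Mpv17, an inner membrane protein needed to keep mitochondrial DNA, by 0.77. Lonp1, the protease that degrades TFAM, fell from 519 ± 50.0 to 115 ± 4.63 CPM (mean ± SD, 3 samples each, log2 fold change -2.17). Endog, another mitochondrial nuclease, had -1.21 and Primpol, a primase-polymerase, -1.03. In controls Lonp1 had most of the reads of the list, whose sum there, 748 ± 33.4 CPM, exceeded that after Folfiri, 382 ± 9.82 CPM (SD, 3 samples each), so the sum and the median gene differ in sign. Genes on the other strand share 84.2% of the exonic bases of Fen1, 35.6% of those of Endog and 17.3% of those of Primpol, and a gene on the same strand shares 14.4% of those of Mpv17, so these levels are uncertain.

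Among 24 genes of mitochondrial RNA processing and decay 19 (79.2%) rose and 4 (16.7%) fell, beside 40.3% and 38.8% of all tested genes, with a median log2 fold change of 0.84. Fastkd2 and Tbrg4, both of the FASTK family of mitochondrial RNA-binding proteins, rose by 2.72 and 2.68 on the log2 scale, Tbrg4 from 36.1 ± 5.41 CPM in controls (mean ± SD, 3 samples) to a mean of 232 CPM. The list holds 6 genes of this family, a grouping made after the values were seen, and 5 of them rose, by 1.95 to 2.72. Mterf1b, a gene of the mitochondrial transcription termination factor family, rose by 2.38, though reads could be shared with its close paralog Mterf1a. Grsf1, which binds RNA in mitochondrial RNA granules, fell from 493 ± 60.5 to 189 ± 6.18 CPM (mean ± SD, 3 samples each, log2 fold change -1.38). Fastk, the family member that fell, had -1.16 and Pnpt1, a ribonuclease of the mitochondrial degradosome, -0.42. Of the exonic bases, 26.1% in Fastk are shared with genes on the other strand, and 65.2% in Fastkd5, one of the 5 that rose, with a gene on the same strand.

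Of 8 genes that supply or carry nucleotides for mitochondria 5 (62.5%) rose, beside 40.3% of all tested genes, and 3 did not pass the test, with a median log2 fold change of 0.38. Among those that rose were Slc25a33, a pyrimidine nucleotide carrier, with a log2 fold change of 1.42 and Samhd1, a dNTP hydrolase, with 0.69. In Slc25a33, 14.9% of exonic bases are shared with a gene on the other strand.

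Of 11 nuclear regulators of mitochondrial genes 5 (45.5%) rose and 3 (27.3%) fell, beside 40.3% and 38.8% of all tested genes, with a median log2 fold change of 0.14. Pprc1, a coactivator of the PGC-1 family, went from 31.9 ± 11.3 to 195 ± 8.02 CPM (mean ± SD, 3 samples each, log2 fold change 2.61). Myc rose by 1.77, and Ppargc1a by 1.16 at a level of 0.501 CPM after Folfiri. Ppargc1b had -1.05, Yy1 -0.86 and Nrf1 -0.58, Nrf1 being the factor whose letters were searched in the promoters. The GABP subunit genes, named for the ETS letters and not for their size of change, had log2 fold changes of -0.10 for Gabpa, -0.14 for Gabpb1, neither past the threshold, and 0.24 for Gabpb2, which rose.

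**Figure D5:**
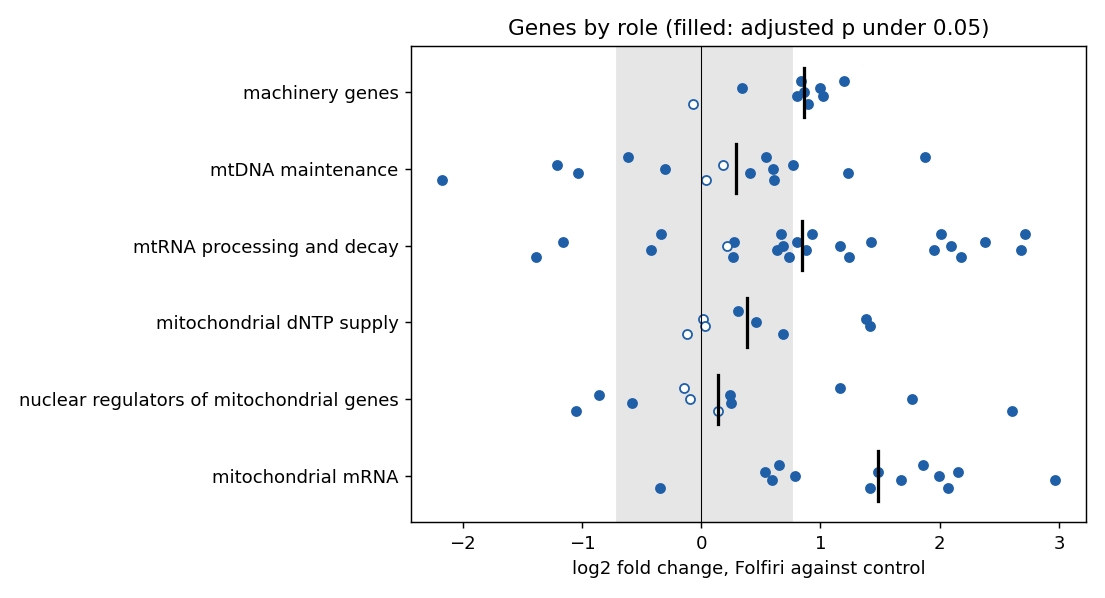
Log2 fold change of Folfiri against control for the tested genes of each list (points, filled where the adjusted p is under 0.05) with the list's median as a vertical line and the interquartile range of all tested genes as a grey band. The machinery genes lie between -0.07 and 1.20, the RNA processing genes reach from -1.38 to 2.72, and the DNA maintenance genes lie on both sides of 0.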

How the data were processed

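RNA sequencing of 3 control and 3 Folfiri-treated MTO54 cultures was used. Per the labels and the methods, libraries were made from poly(A) RNA, and the authors aligned reads with STAR 2.5.2 to GRCm38 with GENCODE vM25, obtained gene-level reads through Rsubread, and deposited the counts raw, without normalization. Strand setting and treatment of reads with several positions are not given in the sources used here. The deposited counts were filtered by edgeR 4.0.16 (R 4.3.3) at default settings, which kept 14692 of 24190 genes, scaled by TMM and tested by quasi-likelihood, p values being adjusted by Benjamini-Hochberg and called under 0.05. The SE is the log2 fold change over the root of the F statistic. Symbols, positions and overlaps came from GENCODE vM21 on the same build, which holds 24168 of the identifiers, and copies were sought with blastn 2.17.0 at 97% identity. Promoters are RefSeq's, on GRCm38.p6. Ratios within samples were compared by exact permutation. Named genes were all members, the mitochondrial mRNAs (extremes and mt-Nd6 by value), and up to 3 genes per direction with the largest change in each other list, of which 1 is not reported here. The members and lists were chosen with earlier results of these data known. Total counts were 22103591 to 30098210 per sample. Scripts were tested on simulated data. Alternatives were other scalings, filters, DESeq2 1.42.0, the replicate number as a block and leaving out each sample.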

Additional observations from a re-analysis of the deposited data

How the results depend on the processing

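Under 14 alternatives, namely 4 scalings, 2 filters, DESeq2, the replicate block and 6 fits without a sample, 8 members stayed higher at an adjusted p under 0.05 and 0 were lower. Tfb1m passed the threshold in 0 of them, and its log2 fold change of -0.07 became 0.20 with total counts only, and ranged from -0.14 to 0.021 in the fits without a sample, the highest being that without control replicate 1. The number of mitochondrial mRNAs called lower, 1 with the settings used, was 0 with total counts only, with upper quartile scaling and with a filter at a mean of 1 CPM, and from 0 to 1 in the fits without a sample. This is the call of mt-Co1, whose log2 fold change stayed between -0.45 and -0.06, and the cause was not tested. With total counts only, 63.3% of called genes were higher in place of 51.0%, and the median of the members was 1.14. With the replicate block, 5878 genes were called higher and 5621 lower, in place of 5926 and 5697, and 8 members were called. No pairing by number was seen, as the deviations of same-numbered samples had correlations of 0.07, -0.38 and 0.07. Not every sample correlated best with its own number. With 3 samples a group this does not show that the samples were unpaired. The ratios of Lrpprc to Slirp, and the share over all 37 mitochondrial genes, were not run, since Slirp had almost no reads and 13 mitochondrial genes were in the table. Depth is lowest for Slirp, which had 0 to 2 reads a sample, and low for Tfb1m, with 106 to 176, and Tefm, with 56 to 327.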
